A study of Mus musculus with 8 samples.

Results

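The regions described here are places in the mouse genome where the transcription factor ZBTB2 was found over a wide stretch in embryonic stem cells (ESCs) in both culture media used, and was not listed in neural progenitor cells (NPCs). They were chosen from 3 deposited peak lists, for ESCs in serum with LIF (serum ESCs), for ESCs with 2i added to that medium (2i ESCs), and for NPCs. Peaks of the 3 lists that overlapped by 1 bp or more were merged into regions. A region was kept if it held at least 1 serum peak and 1 2i peak, held no NPC peak, and had a widest serum peak of 600 bp or more, a width reached by 31.6% of the 3061 regions in both ESC lists. This gave 740 of 6680 regions. The 85 regions of a dense block near the start of chromosome 10 (from 5852507) and the 14 on the mitochondrial chromosome or random contigs were left out beforehand, and 0 of them met the other conditions.

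ZBTB2 was mapped by ChIP-seq, in which chromatin fragments bound by a protein are pulled down with an antibody, here against GFP, and sequenced. All 3 libraries came from the ESC line IB10, of 129/Ola background, which carried a ZBTB2-GFP fusion on a bacterial artificial chromosome (BAC), or from NPCs derived from those ESCs and kept in NPC medium. The tagged protein was thus read from an added transgene, and the NPCs descend from the same tagged line. With 1 library per group there is no replicate check of any difference between states, and p-values are not given. The other 5 samples, 3 inputs and 2 GFP immunoprecipitations from untagged cells (IB10 ESCs in serum, and NPCs from the ESC line R1), are not analysed here.

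ZBTB2 belongs to a family of proteins with a BTB domain, through which they pair with each other and with partner proteins, and zinc fingers, through which they bind DNA. Serum with LIF keeps ESCs in a mixed pluripotent state, and 2i, a pair of inhibitors of the kinases MEK and GSK3, holds them closer to a ground state with lower DNA methylation. NPCs are self-renewing precursors of neurons and glia that have left the pluripotent state. The width of a ChIP-seq peak is the stretch over which the caller found enrichment, so a wide peak can cover several neighbouring binding sites or a broad domain.

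Positions are in mm9, counted from 1. Each peak carries a score by the authors' peak caller, read as the −log10 of its p or q value, and a region's score in a list is that of its highest-scored peak there. Scores grow with sequencing depth, which is unknown, so the serum and 2i scores of a region are set side by side, and regions are compared within a list or by rank, except for the order of score ratios by chromosome at the end. Intervals are 95% intervals over regions (exact Clopper-Pearson for shares, order statistics for medians). They treat regions as independent, cover counting error only, and say nothing of the spread between cultures.

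The strongest of these regions were among the strongest ZBTB2 sites of the ESC genome. The region chr11:3996350-3997018 scored 211.8 in serum ESCs, rank 12 of 4072 peaks, and 109.6 in 2i ESCs, rank 41 of 5934. Its serum peak was 669 bp wide and its 2i peak 600 bp. The region chr4:102786694-102787693 scored 200.5 (rank 16) in serum and 111.4 (rank 37) in 2i ESCs. It was split in serum into 2 peaks, the wider of 687 bp, whereas a 2i peak of 958 bp spanned both. The region chr17:35977871-35978930 scored 198.7 (rank 17) and 100.8 (rank 57), with widths of 985 and 885 bp. All 3 thus stood high in both media while the NPC list held no peak there.

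The fourth by serum score, chr6:122289306-122290161, led by 2i score. It scored 182.9 in serum (rank 21) and 138.7 in 2i ESCs (rank 14). The region chr1:145549691-145550544 was also high in both, at 175.6 (rank 26) and 117.2 (rank 31). The other 5 of the 10 highest serum scores held lower 2i ranks, from 122 to 309. Of these, the region chr7:4971700-4972443 scored 182.7 in serum (rank 22) and 51.9 in 2i ESCs (rank 309). A further region, chr7:13619701-13620347, scored 168.9 and 67.9. The last 3 were chr1:174306271-174307225 (147.0 and 56.1), chr16:16870641-16871263 (136.4 and 75.4) and chr1:182743818-182744637 (133.7 and 58.1). In total 10 of the 740 regions were in the top 100 of both ESC lists, against 37 of the 226 regions that were as wide and had an NPC peak. Of the 2038 narrower ESC regions without an NPC peak, 2 were. Such high ranks were thus less common among the 740 than among wide regions with an NPC peak. The share over all 3061 regions in both ESC lists was not counted.

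**Figure D1:**
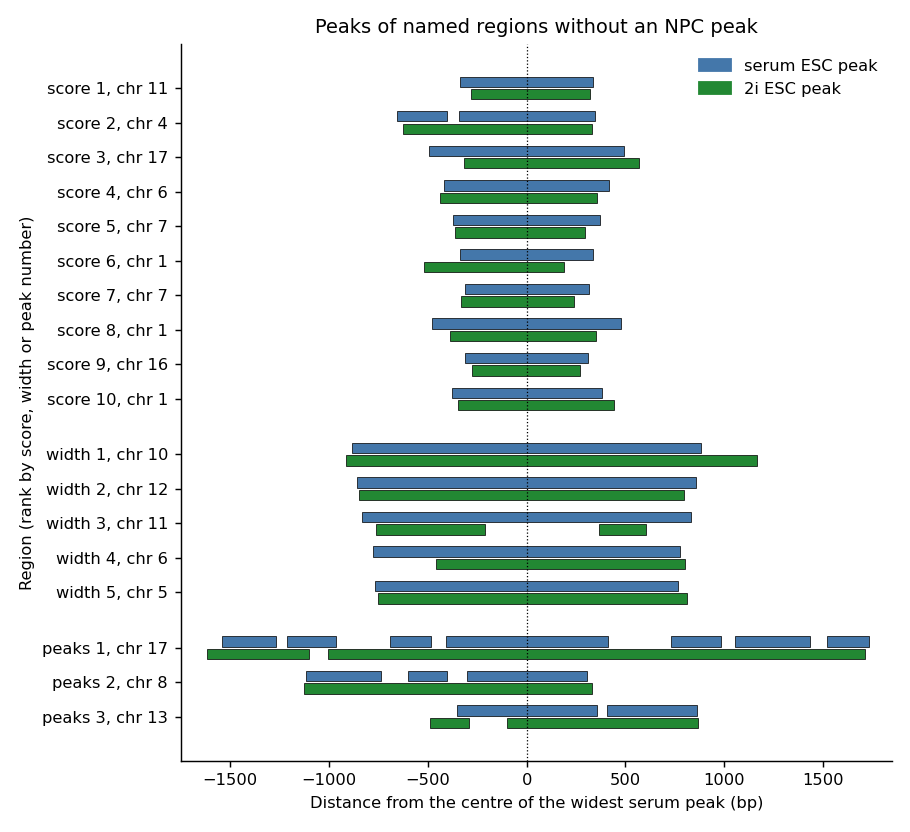
Peaks of 18 named region entries, drawn as bars by distance in bp from the centre of the widest serum peak, with serum ESC peaks above 2i ESC peaks: the 10 highest serum scores, the 5 widest serum peaks and the 3 regions with the most peaks. In the 10 highest-scored regions the peaks of both media overlap around the centre, with the 2i peak shifted or longer in some, such as those on chromosome 4 (958 bp against 687 bp) and chromosome 1 at rank 6, and the chromosome 17 region with the most peaks holds 7 serum and 2 2i peaks.

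Regions that led the 2i list without being in the serum top 10 showed how far the media could differ. The region chr16:30063156-30064581 scored 132.3 in 2i ESCs (rank 18) and 51.7 in serum (rank 424), with wide peaks in both, 1426 and 1333 bp. The region chr15:64143808-64144829 scored 127.5 in 2i (rank 21) and 47.7 in serum ESCs (rank 487). The next 3 were high in both. They were chr8:48798629-48799894 (114.6 in 2i, 133.1 in serum), chr5:25035529-25036215 (106.7 and 109.4) and chr4:46463366-46464055 (106.5 and 95.4).

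As a set, the regions were moderately strong in both lists. The median serum score was 32.3 (30.3 to 34.0; quartiles 20.8 and 51.9) and the median 2i score 28.8 (26.5 to 30.3; quartiles 18.3 and 41.8). A serum score above the serum list's median was held by 655 of 740, or 88.5% (86.0 to 90.7), beside 60.4% of all 3061 regions in both ESC lists. A 2i score above the 2i list's median was held by 662, or 89.5% (87.0 to 91.6), beside 73.5% of the 3061. Wider peaks score higher in these lists, so the width in the rule bears on these shares. The lowest serum score was 5.49, at chr9:64988700-64989570, where the 2i score was 25.9. The next lowest were 5.95, at chr15:79634498-79635315 (2i score 24.0), and 6.55, chr8:11556120-11556816 (2i score 12.7). The lowest score of any serum peak was 3.03, so wide regions were found among weak peaks too.

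Serum and 2i scores ranked the regions alike in part. Across the 740 the Spearman correlation of the scores was 0.60, near the 0.63 over all 3061 regions in both ESC lists. It was 0.74 across the 226 wide regions with an NPC peak and 0.44 across the 2038 narrower ESC regions without one. These are correlations across regions of the same libraries and carry no test. Among themselves the 740 changed rank by a median of 115 places between the lists, 210 of them by 200 or more, and 46 were in the top 100 by both scores.

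**Figure D2:**
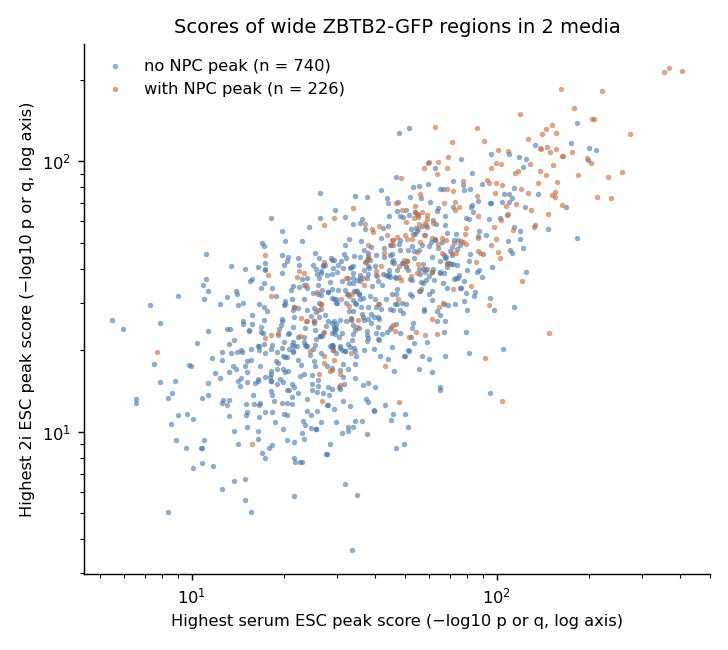
Highest serum ESC score (x) against highest 2i ESC score (y) of each region with a serum peak of 600 bp or more, both −log10 p or q on log axes, for 740 regions without (blue) and 226 with (orange) an NPC peak. Regions with an NPC peak lie mostly toward the upper right, and regions without one spread over the whole range up to a serum score of 211.8.

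Ranked among the 740 only, the largest rises from serum to 2i started from low serum ranks, as a large rise must. The region chr1:138241933-138242820 scored 11.1 in serum ESCs (rank 709 of 740) and 45.3 in 2i ESCs (rank 147). Next came chr8:114059991-114060826 (18.2 in serum, 61.6 in 2i), chr3:145650542-145651742 (17.0 and 50.04), chr6:54766568-54767621 (17.3 and 48.8) and chr13:85428108-85429407 (13.4 and 40.9). In all 5 the 2i peak was wider than the widest serum peak, at 836 to 1300 bp against 621 to 879 bp. Across the 740, 2i width and 2i score had a Spearman correlation of 0.53, so the width is not independent of this choice by score.

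The largest falls in rank among the 740 had widths that differed the other way, again not independently of the scores used to choose them. The region chr11:53332992-53333780 scored 95.3 in serum ESCs (rank 39 of 740) and 13.9 in 2i ESCs (rank 630), and its peak was 789 bp wide in serum and 463 bp in 2i. The region chr12:81216344-81217056 scored 49.6 in serum and 9.003 in 2i ESCs, with widths of 713 and 334 bp. At chr15:90879639-90880672 the serum peak of 1034 bp scored 51.2 and the 2i peak of 248 bp scored 10.4. The other 2 were chr11:44283709-44284325 (64.9 and 14.3) and chr7:6107375-6108150 (64.9 and 14.6). In all 5 the 2i peak was the narrower, by as little as 8 bp on chromosome 7 (656 and 648 bp).

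Width in 2i ESCs was not part of the rule, and most regions were wide there too. The 2i peak was 600 bp or more in 536 of 740, or 72.4% (69.1 to 75.6), beside 38.3% of all 3061 regions in both ESC lists. The share was 93.8% (89.8 to 96.6) at wide regions with an NPC peak and 19.8% (18.1 to 21.6) at narrower ESC regions without one. Width in the 2 media is related across all regions, with a Spearman correlation of 0.65 over the 3061, so a choice by serum width carries over to 2i. The median width was 752 bp in serum (739 to 772) and 757.5 bp in 2i ESCs (730 to 784), and the 2i width ran from 156 to 2718 bp.

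The 204 regions that were wide only in serum had the lower median scores. Their median 2i width was 451.5 bp. Their median scores were 25.6 in serum and 15.2 in 2i ESCs, beside 35.6 and 33.9 at the 536 that were wide in both. The 204 were split off by 2i width, which had a Spearman correlation of 0.53 with 2i score across the 740. Their lower 2i score is thus not independent of the split. The share with a wide 2i peak was 56.4% (50.1 to 62.5) of the 259 regions with a serum peak of 600 to under 700 bp, 72.3% (64.9 to 78.8) of the 173 from 700, 84.3% (78.5 to 89.1) of the 198 from 800, and 89.1% (81.7 to 94.2) of the 110 of 1000 bp or more. Median scores were also higher in each step, from 27.4 to 43.9 in serum and from 24.5 to 38.8 in 2i ESCs.

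**Figure D3:**
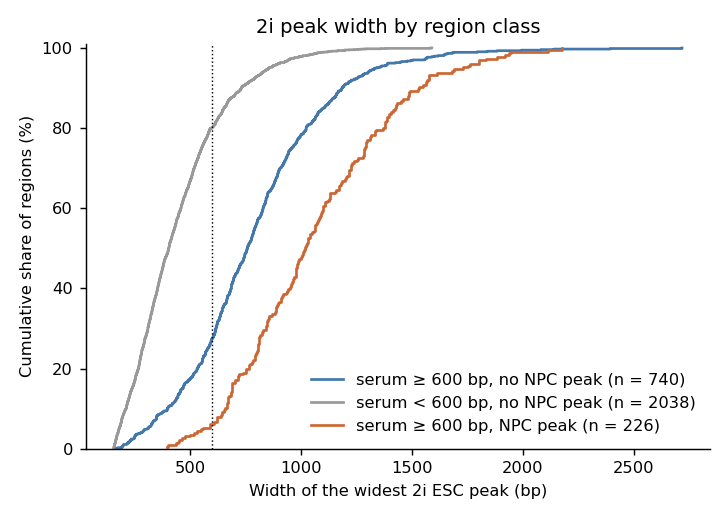
Cumulative share of regions (%) by width in bp of the widest 2i ESC peak, for the 740 wide ESC regions without an NPC peak (blue), 2038 narrower ones (grey) and 226 wide regions with an NPC peak (orange); the dotted line marks 600 bp. The blue curve lies between the other two, with 72.4% of its regions at 600 bp or more.

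The 5 regions with the widest serum peak were not the strongest, although serum score rose with serum width across the 740 (Spearman correlation 0.27). The widest serum peak, 1763 bp at chr10:98376458-98378539, scored 37.8 in serum and 43.7 in 2i ESCs, where the peak was 2082 bp. The next, 1714 bp at chr12:3806380-3808093, scored 28.8 and 31.3. The third, 1660 bp at chr11:102178023-102179682, scored 48.3 in serum, and 2i ESCs had 2 peaks there, the wider of 550 bp, with a highest score of 23.1. The other 2 were chr6:51419654-51421231 (36.9 and 42.4) and chr5:77694167-77695741 (82.7 and 69.0). None of the 5 was among the 50 highest by serum score within the set, the best being rank 56.

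At the threshold itself regions differed little in width and much in score. Just inside, 6 regions had a serum peak of exactly 600 bp, with serum scores from 8.58 to 64.9. The 3 highest were chr11:44283709-44284325 (serum score 64.9), chr7:71432257-71432981 (42.4) and chr10:93610615-93611214 (42.0). Just outside were chr1:134313901-134314505 with 599 bp (19.0), chr15:27396011-27396824 with 598 bp (54.3) and chr11:102046071-102046668 with 598 bp (52.3).

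The peaks of both media mostly covered the same stretch. The 2i peak covered a median of 90.8% of the serum peak (quartiles 74.8 and 99.2), and the serum peak 94.1% of the 2i peak (82.3 and 100). The median width ratio of 2i to serum was 0.964 (0.941 to 0.981), beside 1.06 (1.05 to 1.08) over the 3061. Choosing by serum width pulls this ratio down: when the 600 bp threshold was put on the 2i peak instead, 939 regions were chosen with a median ratio of 1.27, and 536 of them were shared with the 740. The 2i peak was the wider in 323 regions, or 43.6% (40.0 to 47.3), beside 57.6% of the 3061. Peak centres lay a median of 62.25 bp apart (53 to 68.5) and within 100 bp in 491, or 66.4% (62.8 to 69.8), beside 74.3% of the 3061, whose peaks were narrower. They lay over 250 bp apart in 56 regions, or 7.57% (5.77 to 9.71), beside 4.57% of the 3061.

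Most regions were simple. Of the 740, 651, or 88.0% (85.4 to 90.2), were made of 1 serum and 1 2i peak, beside 92.3% of the 3061. More than 1 2i peak was held by 55, or 7.43% (5.65 to 9.56), beside 3.14% of the 3061. Among them 49 had 1 serum peak over 2 2i peaks. These were weaker in 2i ESCs, with a median score of 15.0 against 29.7 at the simple ones, and their wider 2i peak had a median of 457 bp against 755 bp. The opposite, several serum peaks under 1 2i peak, was found in 34 regions, with median scores of 32.8 in serum and 35.5 in 2i ESCs and a median 2i width of 1177.5 bp.

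The region with the most peaks, chr17:39979977-39983320, held 7 serum and 2 2i peaks. Its highest scores were 14.5 in serum and 15.7 in 2i ESCs, and the 2i peak of 2718 bp was the widest 2i peak of the 740. At chr8:127472257-127473710, 3 serum peaks (highest score 51.1) lay under a 2i peak of 1454 bp (47.1). At chr13:120217188-120218540 both media had 2 peaks, with highest scores of 42.4 and 38.4. No filter for repeated sequence was applied here.

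Having no NPC peak is common: 90.8% of the 3061 regions in both ESC lists had none. Among regions with a serum peak of 600 bp or more it was less so, 740 of 966, or 76.6% (73.8 to 79.2), beside 2038 of 2095 narrower regions, or 97.3% (96.5 to 97.9). Absence and width were used by the rule, so these shares describe the choice. The scores were not used, but they rise with width, which was. By quartile of the serum score, 94.2% (90.5 to 96.8), 85.9% (80.8 to 90.0), 72.6% (66.5 to 78.1) and 53.7% (47.2 to 60.1) of the 966 wide regions had no NPC peak, from lowest to highest. By quartile of the 2i score the shares were 92.6% (88.5 to 95.6), 85.8% (80.8 to 90.0), 79.7% (74.0 to 84.6) and 48.3% (41.9 to 54.8). In the highest serum quartile 130 of 242 regions thus had no NPC peak. Median serum width also rose from the lowest to the highest quartile, from 710.5 to 905.5 bp by serum score and from 714 to 950.5 bp by 2i score. Score and width were not separated in these shares. At a serum score of 150 or more, 7 wide regions had no NPC peak and 28 had one.

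**Figure D4:**
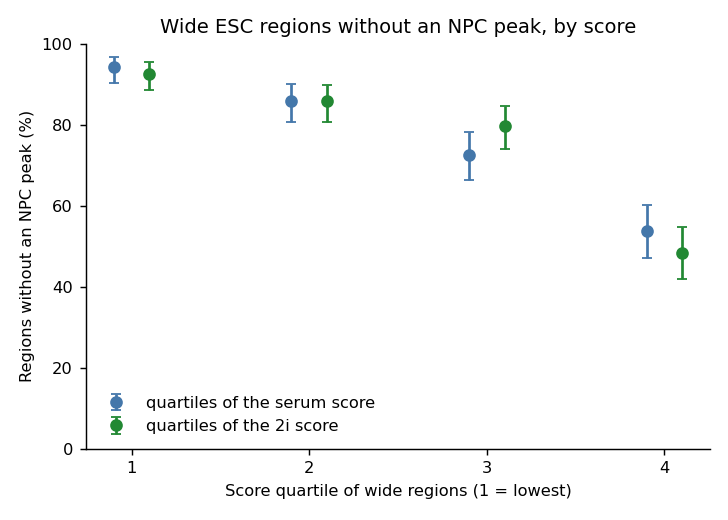
Share (%) of the 966 wide regions in both ESC lists that had no NPC peak, by quartile of the serum score (blue) or of the 2i score (green), with 95% Clopper-Pearson intervals. The share is above 90% in the lowest quartile of either score and 53.7% (serum) and 48.3% (2i) in the highest.

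Within quartiles of the serum score, wide regions without an NPC peak had lower median 2i scores and narrower median 2i peaks than those with one. The intervals were apart in 3 of 4 quartiles for the 2i score and in the upper 2 for the 2i width. These quartiles do not match the serum width. Serum peaks without an NPC peak were narrower as well in the third quartile, at 811 bp (755 to 837) against 1006 bp (864 to 1102). In the highest, serum widths were 827 bp (784 to 878) and 1026 bp (963 to 1102). In the lower 2 quartiles the intervals of the serum width overlapped. In the third serum quartile the 175 regions without an NPC peak had a median serum score of 46.9 (45.5 to 48.9) and the 66 with one 50.5 (47.7 to 54.1). Their median 2i scores were 37.1 (33.0 to 39.5) and 49.5 (42.2 to 53.1), and their median 2i widths 801 bp (756 to 841) and 1129.5 bp (963 to 1255). In the second quartile, with serum medians of 29.6 and 28.9, the 2i scores were 25.6 (23.5 to 28.3) for 207 regions and 26.0 (19.8 to 32.2) for 34, and the intervals overlapped, as did those of the 2i widths, 773 bp (696 to 818) and 952.5 bp (778 to 1067). In the lowest, the 228 regions without an NPC peak had a median serum score of 17.0 (16.5 to 17.9) and a 2i score of 18.4 (16.7 to 20.1), and the 14 with one 18.7 (17.4 to 22.7) and 27.7 (22.2 to 38.5), with overlapping 2i widths of 676.5 bp (617 to 744) and 965.5 bp (652 to 1292). In the highest quartile the serum scores were themselves apart, at 79.2 (74.8 to 83.4) for 130 regions and 103.3 (95.5 to 120.4) for 112, as were the 2i scores, at 49.8 (44.8 to 54.3) and 78.4 (70.2 to 88.5), and the 2i widths, at 792 bp (736 to 864) and 1012.5 bp (957 to 1081). Within quartiles of the 2i score the median serum score was likewise lower without an NPC peak in each quartile, and the intervals were apart in the lowest, at 20.8 (19.4 to 22.7) and 28.9 (26.8 to 33.2), and the highest, at 64.3 (59.1 to 74.8) and 94.0 (76.4 to 106.8). They overlapped in the second, at 29.6 (28.0 to 32.7) and 33.4 (26.4 to 46.3), and in the third, at 40.2 (35.6 to 45.3) and 50.5 (41.6 to 58.1). The 2i quartiles did not match the serum width either. It was 755.5 bp (734 to 806) without and 963 bp (846 to 1102) with an NPC peak in the third. In the highest it was 870 bp (815 to 916) and 1047 bp (974 to 1116). The median 2i scores there were 65.0 (61.9 to 69.9) and 76.3 (69.1 to 84.6). NPC scores at the 226 wide regions with an NPC peak had a median of 12.5 and ran from 2.07 to 70.3. The lists reached down to different lowest scores, 2.07 for NPCs, 3.03 for serum ESCs and 3.02 for 2i ESCs. Depth and control library may differ between the lists as well, and none of these can be told apart from the cell state.

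The median distance from the 740 regions to the nearest region with an NPC peak was 1784 kb. Such a neighbour lay within 10 kb of 11, or 1.49% (0.744 to 2.64), beside 1.4% of all ESC regions without an NPC peak, so the share was near the background. It lay within 1 kb of 5. All 11 neighbours were themselves in both ESC lists, and 8 of the 11 had the higher serum score of the pair. In general, 226 wide and 57 narrower regions with an NPC peak were in both ESC lists, for an NPC list of 320 peaks. Their median serum scores were 61.4 if wide and 32.0 if narrower, beside 32.3 for the 740. Whether the 11 pairs differ from this background was not tested. The nearest was on chromosome 5, where the region chr5:53980152-53981063 (serum score 35.6, 2i score 59.0) lay 49 bp from the region chr5:53981113-53982270 that scored 78.6 in serum, 53.7 in 2i ESCs and 17.8 in NPCs. The region chr15:96115769-96116631 (16.6 and 20.7) lay 166 bp from an NPC peak region with scores of 27.2, 58.0 and 5.40. The region chr7:134170524-134171229 (33.7 and 36.9) lay 203 bp from a region with 63.8, 90.0 and 11.8. In these 3 pairs the neighbour with the NPC peak was the stronger in serum.

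The second-strongest of the 740 was an exception. The region chr4:102786694-102787693, with scores of 200.5 and 111.4, lay 4015 bp from the region chr4:102791709-102792447 that scored 66.1 in serum and 52.1 in 2i ESCs and held an NPC peak of score 5.34. The NPC list thus held the weaker ESC site of this pair and not the stronger. It was picked out after its values were seen. The other 2 exceptions by serum score were at chr12:92828122-92829124 (58.7, neighbour 7.09) and the 7-peak region on chromosome 17 (14.5, neighbour 7.70). By 2i score the order was the same on chromosome 12 (36.3, neighbour 6.38). On chromosome 17 it turned, with 15.7 against 19.8 at the neighbour.

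The regions were spread over all autosomes and X, from 65 on chromosome 5 to 6 on X. Of the ESC regions without an NPC peak, 26.6% (25.001 to 28.3) were wide over all chromosomes, and by chromosome the share ran from 16.6% (11.1 to 23.3) on chromosome 9 to 33.0% (24.4 to 42.6) on chromosome 12. On X, 6 of 27 were wide, or 22.2% (8.62 to 42.3). The 3 strongest of these were chrX:7150805-7151760 (74.3 in serum, 36.9 in 2i ESCs), chrX:160395834-160396793 (29.0 and 40.4) and chrX:165757914-165758689 (26.9 and 41.4). Of the 740, 170, or 23.0% (20.0 to 26.2), had another region of any list within 10 kb, beside 25.9% of the 3061.

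Chromosome 11 stood lowest in 2i ESCs. Its 59 regions had a median serum score of 34.2, near the 32.3 of all 740, and a median 2i score of 19.1, against 28.8. The 2i peak was 600 bp or more in 29 of 59, or 49.2% (35.9 to 62.5), against 72.4% of all. Regions were also ordered by the ratio of their 2i to their serum score. The size of such a ratio depends on the depth of both libraries, so only a region's side of its set's median ratio was used. On chromosome 11, 46 of the 59, or 78.0% (65.3 to 87.7), lay below the median of the 740. The same held for 13 of 14 wide chromosome 11 regions with an NPC peak, or 92.9% (66.1 to 99.8), against the median of their own set. Of the 154 narrower ESC regions without an NPC peak there, 88, or 57.1% (48.9 to 65.1), lay below the median of theirs. In that set chromosome 11 did not stand out, as the share was 60.3% (48.5 to 71.2) on chromosome 10 and 58.6% (49.9 to 66.8) on chromosome 5. The chromosome was singled out among 20 after the values were seen, and with 1 library per medium the difference has no replicate check.

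**Figure D5:**
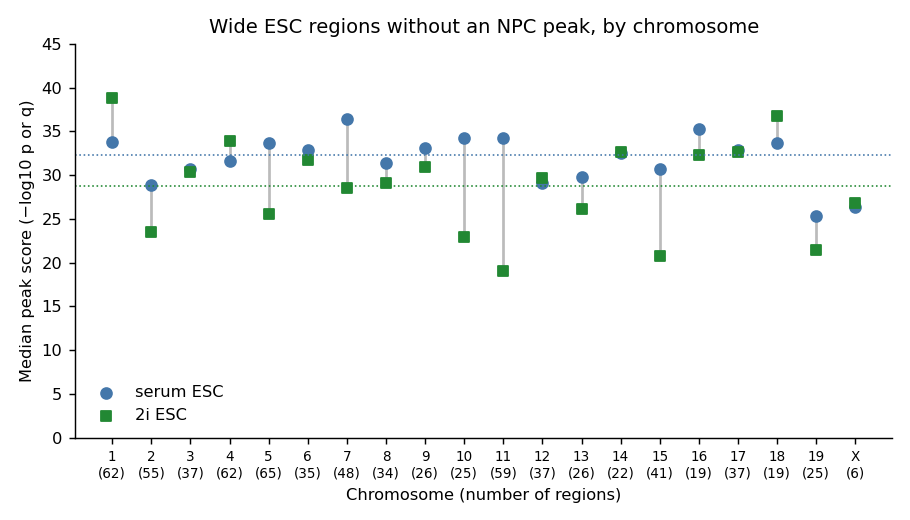
Median serum ESC (blue circles) and 2i ESC (green squares) peak score, −log10 p or q, of the 740 regions by chromosome, with the number of regions in brackets; dotted lines mark the medians over all, 32.3 and 28.8. Chromosome 11 has the lowest 2i median, 19.1, with a serum median of 34.2, while on chromosome 1 the 2i median of 38.8 is the higher of the pair.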

How the data were processed

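The authors deposited 1 peak list per tagged library, with chromosome, start, end, name and score. The submitters' processing notes name mm9, SAMtools and MACS2 2.0. The score deposited by the authors was read as the −log10 of a p or q value from the lowest score of each list, which is close to that of the cutoff named in the list's title. These lowest scores were 3.03 (serum), 3.02 (2i) and 2.07 (NPC), so the NPC list was cut at a lower score. Neither aligner nor control library is given in the sources used here, and depth is unknown.

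There were 4072 serum peaks, 5934 2i peaks and 320 NPC peaks, and the 740 regions held 788 serum and 795 2i peaks, or 19.4% and 13.4% of their lists. Peaks overlapping by 1 bp or more were merged, and bedtools 2.31.1 gave the same 6680 regions. Python 3.11.15, numpy 2.4.6, pandas 2.3.3 and scipy 1.17.1 were used. On 4000 simulated sites 0 classes were miscounted.

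The members and the comparisons were chosen with earlier results of these data known. Regions were named by rule: the 10 highest serum scores, the next 5 by 2i score, the 5 largest rises and falls in rank, the 5 widest, 3 on each side of the threshold, and 3 each by peak number, lowest score, nearness to an NPC peak and place on X. Alternatives varied the width, overlap, score and distance rules. No mm9 genome or annotation was used, so start sites, CpG content, motifs, gene lists and sequences are not analysed here.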

Additional observations from a re-analysis of the deposited data

How the results depend on the processing

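Of 52 alternative values of 9 results, 30 stayed within the interval of the reported value or within 1.5 times the count, and 22 moved. The alternatives that reduce the 2i list or put the threshold on the 2i peak were chosen after seeing the data. With a serum peak of 800 bp or more there were 308 regions, 86.0% with a 2i peak of 600 bp or more, median scores of 38.5 (serum) and 33.2 (2i), and 64.7% of wide regions had no NPC peak. With a reciprocal overlap of 50% between serum and 2i peaks, the share with a wide 2i peak was 80.4%, the width ratio 0.985, the 2i score 30.8 and the centre distance 50.5 bp. With a score of 10 or more in all lists, which shortens the NPC list too, the values were 78.1%, 0.987, 31.7 (2i) and 34.8 (serum), 84.3% of wide regions had no NPC peak, 94.1% were made of 1 serum and 1 2i peak, and 15.4% lay within 10 kb of another region. With the 2i list cut to the length of the serum list the last pair were 91.0% and 19.1%. With the threshold on the 2i peak instead, the width ratio was 1.27, the serum score 26.5, the share without an NPC peak 80.2% and the centre distance 71 bp. Leaving out regions within 1 kb of an NPC peak gave 735 regions and moved none of the 9 results. No paired analysis was possible because each group had 1 library and the results come from no test. The reciprocal rule was not run on the makeup of regions. Alternatives on start sites, CpG content and motifs were not run. The limits set by depth cannot be stated, since no read numbers were used.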

Other observations

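Some of the 740 regions came in close pairs. Within 10 kb of each other lay 18 of the 740, in 9 pairs, and no group was longer. The same count was not made for other sets. A region of any list lay within 10 kb of 23.0% of the 740, beside 25.9% of the 3061, so closeness to other regions was not particular to them. The closest pair, 125 bp apart, was chr19:32462358-32463301 and chr19:32463427-32464137, with serum scores of 35.3 and 19.0 and 2i scores of 24.2 and 15.0. The pair with the highest summed serum score was chr7:13619701-13620347 and chr7:13622956-13624033, with serum scores of 168.9 and 102.6 and 2i scores of 67.9 and 61.9. On chromosome 16 the order of a pair turned between the media: chr16:30063156-30064581 scored 51.7 in serum and 132.3 in 2i ESCs, and its neighbour chr16:30069752-30070918 scored 96.3 and 40.6. This reversal was picked out after the values were seen and has no replicate check.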
